A study of Mus musculus with 3 samples.

Results

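The genes described here encode the mitochondrial enzymes and carriers of fatty acid oxidation in mouse visceral white adipose tissue (VWAT, the perigonadal fat pad). The 10 genes (Cpt1a, Cpt1b, Cpt2, Slc25a20, Acadm, Acadl, Acadvl, Hadha, Hadhb and Hadh) were matched by gene symbol in the annotation of the array, which names 19057 genes in all. Of these 10 genes, 9 were detected on all 3 arrays, among 10603 genes measured in the whole series. The rule uses gene names and no measured value, but the genes were chosen with earlier results of these data known. Gene expression had been read on Illumina Mouse WG-6 V2 bead arrays, 1 array per group, from C57BL/6JRj mice for which the labels give an age of 28 weeks. HFD-Rapa mice received a high-fat diet (HFD, 60% of energy from fat) from 6 weeks of age, and after 5 weeks of diet were injected weekly with the mTOR inhibitor rapamycin at 2 mg/kg body weight for 22 weeks. HFD-Ve mice received the same diet and injections of the vehicle. Chow mice, called lean in the labels, are a vehicle group on a low-fat diet according to the labels and were fed regular chow according to the study's methods. The times in the methods add up to an age above the 28 weeks of the labels. RNA of each group was pooled from 5 mice before hybridisation, and the methods name mice of both sexes without saying which were pooled. Each group is thus 1 pool on 1 array, and the spread between animals is not measured.

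Mitochondrial β-oxidation shortens long-chain fatty acids to acetyl-CoA and is fed in fat tissue by the fatty acids that lipolysis releases. Long-chain acyl groups enter the mitochondrion through the carnitine shuttle, whose first step, catalysed by carnitine palmitoyltransferase 1, is blocked by malonyl-CoA. Inside, acyl-CoA dehydrogenases, the trifunctional protein and hydroxyacyl-CoA dehydrogenase carry out the successive steps of the cycle, and nuclear receptors of the PPAR family with their coactivator PGC-1α are known to control many of these genes.

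The start regions are shown for the sequence features that genes of one pathway could share. In the 250 bases before the transcription start (RefSeq, GRCm38.p6), windows were given for 9 of the 10 genes, all but Cpt1b, and the first listed start of a gene was used. The GC box GGGCGG was present on either strand in 7 of these 9 windows (Cpt1a, Cpt2, Slc25a20, Acadl, Hadha, Hadhb and Hadh), against 32.7% of 32851 windows of the same length. Those 32851 windows belong to 27025 genes, so some genes enter with several starts. The nuclear receptor half-site AGGTCA was present in 3 of 9 (Cpt1a, Acadm and Acadvl), against 14.0% of all windows. The tandem arrangement that PPARs bind, AGGTCA repeated after 1 base, contains the half-site and had no match in the 9 windows (0.0335% of all windows), nor had the TATA box TATAAA (12.4%). A match is a description of the letters and not a bound site. The windows of the 3 genes that differed most between the high-fat groups are printed 5′ to 3′ on the strand of the gene, and beside them that of Hadhb, which had one of the smallest. Capitals mark GGGCGG or AGGTCA on either strand. The windows are chr4:107923590-107923839 (minus strand) for Cpt2, chr11:70015429-70015678 (minus strand) for Acadvl, chr3:131272102-131272351 (minus strand) for Hadh and chr5:30155003-30155252 (plus strand) for Hadhb.
Cpt2: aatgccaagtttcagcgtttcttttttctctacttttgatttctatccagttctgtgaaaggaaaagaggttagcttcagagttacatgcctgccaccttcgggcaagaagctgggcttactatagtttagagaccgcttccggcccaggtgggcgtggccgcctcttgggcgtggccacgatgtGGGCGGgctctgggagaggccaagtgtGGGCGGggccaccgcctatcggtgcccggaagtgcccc
Acadvl: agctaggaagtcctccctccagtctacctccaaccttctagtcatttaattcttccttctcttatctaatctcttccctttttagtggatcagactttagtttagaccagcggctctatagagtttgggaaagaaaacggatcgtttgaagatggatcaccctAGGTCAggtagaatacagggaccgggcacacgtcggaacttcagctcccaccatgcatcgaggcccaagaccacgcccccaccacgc
Hadh: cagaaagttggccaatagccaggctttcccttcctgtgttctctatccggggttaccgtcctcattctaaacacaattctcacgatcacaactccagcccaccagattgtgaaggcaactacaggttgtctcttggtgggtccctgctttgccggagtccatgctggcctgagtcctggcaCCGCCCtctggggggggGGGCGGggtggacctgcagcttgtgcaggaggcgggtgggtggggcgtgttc
Hadhb: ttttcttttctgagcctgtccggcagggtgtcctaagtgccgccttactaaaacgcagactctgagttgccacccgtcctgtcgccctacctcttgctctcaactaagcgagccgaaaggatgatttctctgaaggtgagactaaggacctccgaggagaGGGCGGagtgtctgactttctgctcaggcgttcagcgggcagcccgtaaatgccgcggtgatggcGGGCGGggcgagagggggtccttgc
The first base of the marked motif lay 65 and 38 bases before the start in Cpt2, 69 and 52 in Hadh, and 90 and 25 in Hadhb. In Acadvl the half-site lay 87 bases before the start. Hadha and Hadhb, the α and β subunits of the trifunctional protein, lie head to head on chromosome 5 with starts 273 bases apart, so that 228 bases of both windows are the same DNA. The Hadhb motif 90 bases before the start lies in this shared DNA, so these genes are not separate counts among the GC box matches.

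Signals are given as log2 intensity after background correction and quantile normalization across the 3 arrays, and a gene is represented by its brightest detected probe. A probe counted as detected where its detection p, the share of negative control probes at least as bright, was under 0.01. Signals of different probes are not comparable as levels, so each gene is compared only with itself. The summed signals given for marker lists weigh each gene by the brightness of its probe, and each sum is compared only between arrays. In counts, a gene is taken as lower or higher where it differed by at least 1.5-fold, and with 1 array per group no difference has a test. Between probes for one gene, the log2 differences spread with an SD of 0.21 (HFD-Rapa against HFD-Ve), over 3941 genes with several detected probes. Probes for one gene were read on the same arrays, so this SD does not measure the spread between arrays. That SD was 0.32 when HFD-Ve was set against chow and 0.38 when HFD-Rapa was. The 3 arrays detected 39.7% (HFD-Rapa), 38.8% (HFD-Ve) and 37.4% (chow) of 45281 probes, at median raw signals of 102.5, 106.9 and 92.7. The comparisons share arrays and are not independent of each other.

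In HFD-Rapa mice, all 9 measured genes had a lower signal than in HFD-Ve mice, and 3 of them (Cpt2, Acadvl and Hadh) were lower by at least 1.5-fold. None was higher. Over all measured genes, 7.55% were lower by at least 1.5-fold, 8.54% were higher, and 47.5% were below 0 by any amount. With the arrays scaled on their medians, a setting that moved the median of all genes by -0.11, these shares were 10.7% lower and 5.99% higher. The median difference of the 9 genes was -0.50 on the log2 scale (range -1.05 to -0.21), against 0.02 over all genes. In bulk tissue, fewer cells that express a gene and less RNA of it per cell cannot be told apart.

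**Figure D1:**
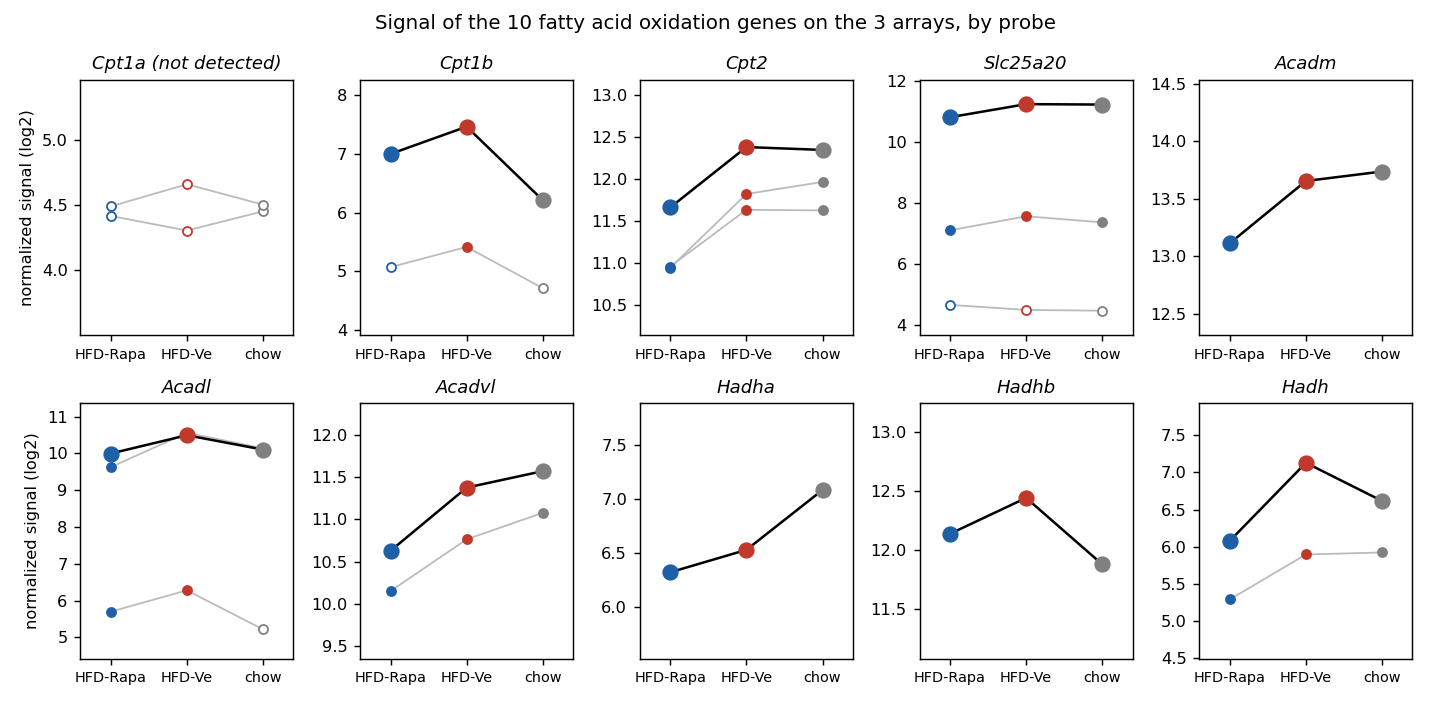
log2 signal (vertical axis) of each of the 10 genes on the HFD-Rapa, HFD-Ve and chow arrays, 1 point per array, which is 1 pool of 5 mice, so no error bar can be drawn. Large points are the probe that stands for the gene, small points its other probes and open points signals that were not detected, as for Cpt1a. The HFD-Rapa point lies below the HFD-Ve point in all 9 detected genes, while the chow point lies above, beside or below the HFD-Ve point depending on the gene.

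Carnitine palmitoyltransferase 1, the first enzyme of the shuttle, was measured through its muscle-type gene alone. Cpt1a, the carnitine palmitoyltransferase 1 form of liver and many other tissues, was not detected on any array by either of its 2 probes. The brighter of these had raw signals of 96.0 in HFD-Rapa, 105.4 in HFD-Ve and 86.9 in chow mice, with a lowest detection p of 0.112. No difference is therefore given for this gene. Cpt1b, the muscle-type form of the same enzyme, had a log2 signal of 7.00 in HFD-Rapa, 7.46 in HFD-Ve and 6.21 in chow mice. It was the only one of the 9 genes above chow by at least 1.5-fold on either high-fat array. Its signal was 1.38-fold lower in HFD-Rapa mice than in HFD-Ve mice, a log2 difference of -0.47. Against chow, it was 2.38-fold higher in HFD-Ve mice and 1.73-fold higher in HFD-Rapa mice. A second Cpt1b probe, detected on the HFD-Ve array alone, differed by -0.35, 0.70 and 0.36 on the log2 scale in these 3 comparisons, in the same directions.

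For the inner-membrane steps of the shuttle, the HFD-Rapa array lay below both others, which were close to each other. Slc25a20, the carrier that exchanges acylcarnitine for free carnitine, had a log2 signal of 10.82 in HFD-Rapa, 11.25 in HFD-Ve and 11.24 in chow mice. HFD-Ve and chow mice were 0.01 apart and the HFD-Rapa array lay 1.35-fold below HFD-Ve, short of the 1.5-fold threshold. Its other detected probe gave -0.46 for HFD-Rapa against HFD-Ve, while a further probe was not detected on any array. Cpt2, which transfers the acyl group back to coenzyme A in the matrix, had 11.66 in HFD-Rapa, 12.38 in HFD-Ve and 12.34 in chow mice. Again the HFD-Ve and chow arrays were close, 1.02-fold apart, and HFD-Rapa was lower by 1.64-fold than HFD-Ve and by 1.61-fold than chow. The other 2 probes of Cpt2 gave -0.88 and -0.67 for HFD-Rapa against HFD-Ve, so that all 3 probes were lower by at least 1.5-fold.

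The acyl-CoA dehydrogenases catalyse the first step of each turn of the cycle and differ in the chain length they accept. Acadvl, the very long-chain enzyme, had a log2 signal of 10.63 in HFD-Rapa, 11.37 in HFD-Ve and 11.57 in chow mice. It was lowest in HFD-Rapa mice, 1.68-fold below HFD-Ve and 1.92-fold below chow, the second being the largest decrease against chow among the 9 genes. Its second probe gave -0.61 and -0.92 for these comparisons. Acadl, the long-chain enzyme, had 9.99 in HFD-Rapa, 10.49 in HFD-Ve and 10.10 in chow mice. It was thus 1.31-fold higher in HFD-Ve than in chow mice, and HFD-Rapa mice were 1.41-fold below HFD-Ve and 1.08-fold below chow. Its 3 probes did not give one size: they ranged between -0.93 and -0.50 for HFD-Rapa against HFD-Ve, and for HFD-Rapa against chow the other 2 probes had opposite signs (-0.51 and 0.48). The probe at 0.48 is dim and was not detected in chow mice. Acadm, the medium-chain enzyme, has 1 probe, with a signal of 13.11 in HFD-Rapa, 13.66 in HFD-Ve and 13.74 in chow mice. HFD-Rapa was lower by 1.46-fold than HFD-Ve and by 1.54-fold than chow, and HFD-Ve and chow were 1.06-fold apart.

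The trifunctional protein performs the remaining steps for long chains, and its subunits did not have the same profile. Hadha, the α subunit with hydratase and dehydrogenase activity, had a log2 signal of 6.32 in HFD-Rapa, 6.53 in HFD-Ve and 7.08 in chow mice. Its only probe is dim, with raw signals of 158, 183 and 191 on the same arrays, and is annotated to a cDNA clone record and not to a RefSeq mRNA. Hadhb, the β subunit with thiolase activity, had 12.13 in HFD-Rapa, 12.44 in HFD-Ve and 11.88 in chow mice. For HFD-Rapa against HFD-Ve both subunits differed by less than 1.5-fold (1.15-fold lower for Hadha and 1.23-fold lower for Hadhb). For HFD-Ve against chow they went in opposite directions, with Hadha 1.47-fold lower and Hadhb 1.48-fold higher. Each subunit rests on 1 probe.

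Hadh, the hydroxyacyl-CoA dehydrogenase of medium and short chains, showed the largest difference between the high-fat groups in the main setting. Its log2 signal was 6.08 in HFD-Rapa, 7.13 in HFD-Ve and 6.62 in chow mice, the raw signals being 146, 237 and 157. HFD-Rapa was 2.07-fold below HFD-Ve and 1.45-fold below chow, and HFD-Ve was 1.43-fold above chow. The second Hadh probe gave a smaller difference of -0.61 for HFD-Rapa against HFD-Ve and -0.03 for HFD-Ve against chow. The size for this dim gene rested on the background correction: without it Hadh differed by -0.59, less than Acadvl (-0.72) and Cpt2 (-0.70), and in the authors' processed values it differed by -0.57 and was no longer past 1.5-fold.

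**Figure D2:**
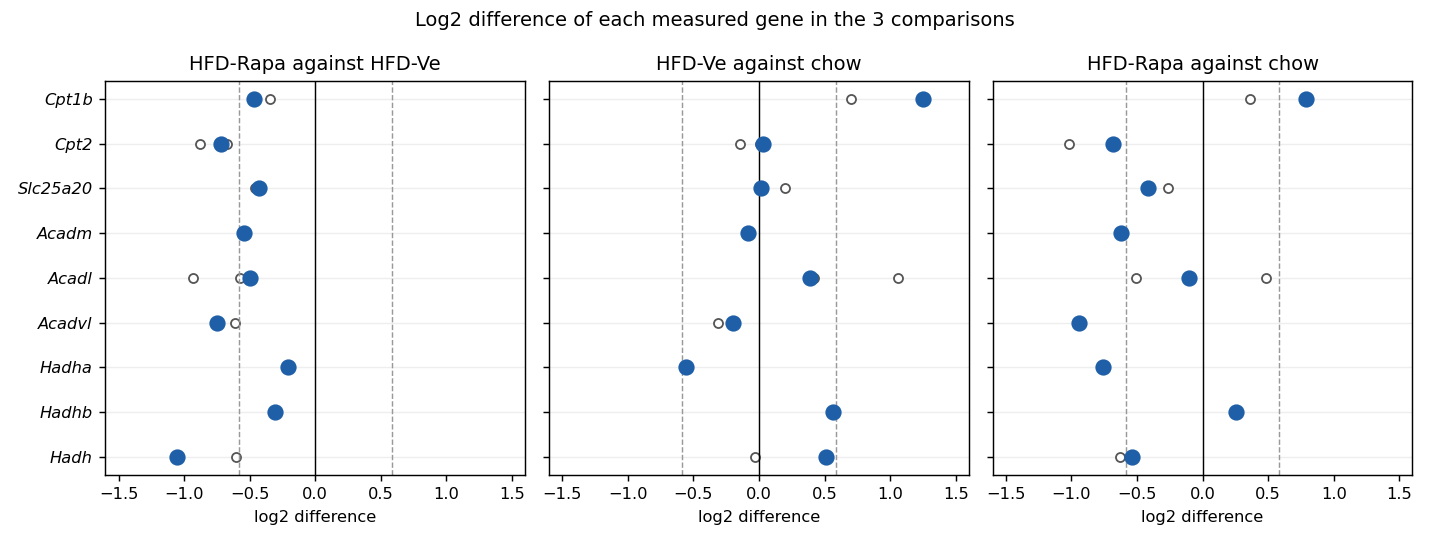
log2 difference (horizontal axis) of each detected probe of the 9 genes for HFD-Rapa against HFD-Ve, HFD-Ve against chow and HFD-Rapa against chow, with the probe that stands for the gene as a filled point, other detected probes as open points and the 1.5-fold limits as dashed lines. All 17 probes lie below 0 for HFD-Rapa against HFD-Ve, compared with 6 of 17 for HFD-Ve against chow. Among the 17 is the second Cpt1b probe, which was detected in HFD-Ve mice alone.

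Taking every detected probe instead of 1 per gene, all 17 probes of the 9 genes had a lower signal in HFD-Rapa mice than in HFD-Ve mice, 8 of them by at least 1.5-fold, at a median of -0.58. Over all 16278 kept probes with 1 annotated gene, 50.3% had a lower signal and 7.57% were lower by at least 1.5-fold (7.72% higher). Probes of the 6 genes with several detected probes differed among themselves with an SD of 0.18. In HFD-Ve against chow, 6 of the 17 probes were below 0 (54.6% of all kept probes), none by 1.5-fold (11.7%), and 3 were higher by that much (14.6%). These 3 were both Cpt1b probes and 1 Acadl probe. Neither the second Cpt1b probe nor this Acadl probe was detected in chow mice. The second Cpt1b probe was kept through the HFD-Ve array alone, so its direction in both comparisons with HFD-Ve is no independent observation.

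The diets were compared in the vehicle groups. In HFD-Ve against chow only Cpt1b was higher by at least 1.5-fold and none of the 9 genes was lower, where 15.1% of all genes were higher and 11.7% lower (21.7% higher and 6.57% lower with the arrays scaled on their medians). The signs were mixed, with 3 genes below 0 (Acadm, Acadvl and Hadha) and 6 above, against 54.7% of all genes below 0. The median of the 9 genes was 0.03, and that of all genes was -0.05. The signs of Cpt2, Slc25a20 and Acadm, with differences of 0.03, 0.01 and -0.08, changed with the scaling or with the choice of probe.

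In HFD-Rapa against chow, 4 of the 9 genes were lower by at least 1.5-fold (Cpt2, Acadm, Acadvl and Hadha), against 19.5% of all genes, and Cpt1b was higher, against 20.5%. Of the 9 genes, 7 were below 0 (52.4% of all genes), with a median of -0.54 against -0.04. Of these calls, Cpt2 and Acadvl were past 1.5-fold under all 9 alternatives that give a value, Acadm under 7, Hadha under 6 and Cpt1b under 5, and the authors' processed values gave 2 lower (12.6% of all genes) and 0 higher (13.7%). Each of these tallies includes the alternatives that changed only the detection filter, which left the values of the 9 genes unchanged and could not end a call. Cpt1b and Hadhb were above chow on both high-fat arrays. Cpt2, Acadm and Acadvl were below HFD-Ve and chow on the HFD-Rapa array, with HFD-Ve within 1.14-fold of chow in each.

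The 5 genes whose profile lay nearest to the median of the 9 genes, over the differences of HFD-Rapa against HFD-Ve and HFD-Ve against chow, were Cnot1, Stx18, Pnpla8, Syap1 and Pomgnt2. Their distances ranged between 0.010 and 0.023 log2 units among 9326 candidate genes detected on all 3 arrays, a likeness over 3 arrays only. Cnot1, a subunit of the mRNA deadenylase complex, differed by -0.51 and 0.04 in these comparisons.

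The other enzymes of the mitochondrial cycle had a median close to that of the 9 genes. Of 14 listed, 13 were measured, and 6 were lower by at least 1.5-fold in HFD-Rapa mice than in the vehicle group of that diet and none was higher, at a median of -0.49. Echs1, the short-chain enoyl-CoA hydratase, had a log2 signal of 10.66 in HFD-Rapa, 11.53 in HFD-Ve and 12.35 in chow mice. Unlike Cpt2, Echs1 was lower in each high-fat group than in chow (differences of -1.69 and -0.82). Etfdh, which passes electrons of the dehydrogenases to ubiquinone, differed by -0.75 for HFD-Rapa against HFD-Ve and 0.13 for HFD-Ve against chow. Acad9, a dehydrogenase that also serves complex I assembly, differed by -0.79 and 0.23. Eci1, an isomerase for unsaturated chains, differed by -0.67 and -0.69. In HFD-Ve against chow the median of the 13 genes was -0.01, and in HFD-Rapa against chow it was -0.51.

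Genes that supply the shuttle with activated fatty acids or handle carnitine had a median near 0. Of 13 genes for fatty acid activation and carnitine supply, 9 were measured, and 1 was lower in HFD-Rapa mice than in HFD-Ve mice (Slc27a1, a fatty acid transport protein, at -0.71), with a median of 0.05 (0 with undetected signals at their bound). Crat, the carnitine acetyltransferase, differed by -0.46 in that comparison and by -0.99 for HFD-Ve against chow. The long-chain acyl-CoA synthetases Acsl3 and Acsl5 differed by -0.21 and 0.22, while Acsl1 of the same family had no named probe and was not measured.

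Malonyl-CoA, the inhibitor of the CPT1 step, is made by acetyl-CoA carboxylases. Acacb, the form at the mitochondrial membrane, had a log2 signal of 7.39 in HFD-Rapa, 8.40 in HFD-Ve and 11.06 in chow mice. It was 2.02-fold lower in HFD-Rapa mice than in HFD-Ve mice, 6.33-fold lower in HFD-Ve than in chow mice and 12.8-fold lower in HFD-Rapa than in chow mice. Acaca, the cytosolic form, was not detected on any array by its only probe. The raw signals were 86.8 in HFD-Rapa, 90.9 in HFD-Ve and 88.2 in chow mice, and no difference is given for Acaca. Mlycd, which degrades malonyl-CoA, differed by -0.24 for HFD-Rapa against HFD-Ve and by -0.42 for HFD-Ve against chow. Over the 9 measured of 10 genes of malonyl-CoA and AMPK control, 2 were lower for HFD-Rapa against HFD-Ve (Acacb and Prkaa2) at a median of -0.14. Prkaa2, an AMPK subunit named after its values were seen, was not detected in HFD-Rapa mice, and its bound of 1.14-fold is under the threshold. In HFD-Ve against chow 3 were lower (Acacb, Prkaa1 and Prkaa2), at a median of -0.31.

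Among 14 transcriptional regulators of oxidation, 12 were measured, with 6 lower in HFD-Rapa mice than in HFD-Ve mice and none higher, at a median of -0.50. Of these 6, Ppargc1a and, named after their values were seen, Klf15 and Esrrg were not detected in HFD-Rapa mice. With undetected signals at their bound, the count was again 6 and the median -0.50. Esrrg was kept through the HFD-Ve array alone, so its direction there is no independent observation. Ppara was not detected on any array by its only probe, with raw signals of 80.0 in HFD-Rapa, 93.6 in HFD-Ve and 86.1 in chow mice. Pparg, the PPAR of fat cells, had 11.03 in HFD-Rapa, 11.95 in HFD-Ve and 12.84 in chow mice. Ppargc1a, which encodes PGC-1α, was not detected in HFD-Rapa mice and was at least 1.62-fold lower there than in HFD-Ve mice, where it was 1.82-fold below chow. This bound sets HFD-Ve against the lowest signal of a detected probe on the HFD-Rapa array, or the probe's own signal where that is higher. Lpin1, a coactivator of PGC-1α, differed by -0.94 for HFD-Rapa against HFD-Ve, and Rxra, the partner receptor of the PPARs, by -0.59. The regulators were also lower in HFD-Ve than in chow mice, 6 by at least 1.5-fold, at a median of -0.57, and 1 was higher (Esrrg, an orphan receptor named after its values were seen and detected in HFD-Ve mice alone).

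Other PPAR target genes were less uniform, with 2 of 9 measured lower and 1 higher in HFD-Rapa mice than in HFD-Ve mice, at a median of -0.03. Ucp3, a mitochondrial carrier of the uncoupling protein family, differed by -1.41 and Aqp7, the glycerol channel, by -0.72. Acot1, a cytosolic acyl-CoA thioesterase, differed by 0.81. Pdk4, which restrains pyruvate oxidation, was 10.44 in HFD-Rapa, 10.93 in HFD-Ve and 9.95 in chow mice, an order that Cpt1b shared. In HFD-Ve against chow this list had 4 higher (Pdk4 and, named after their values were seen, Angptl4, Plin2 and Fgf21) and none lower, at a median of 0.48. Oxct1, which activates ketone bodies for oxidation, differed by -0.68 for HFD-Rapa against HFD-Ve.

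**Figure D3:**
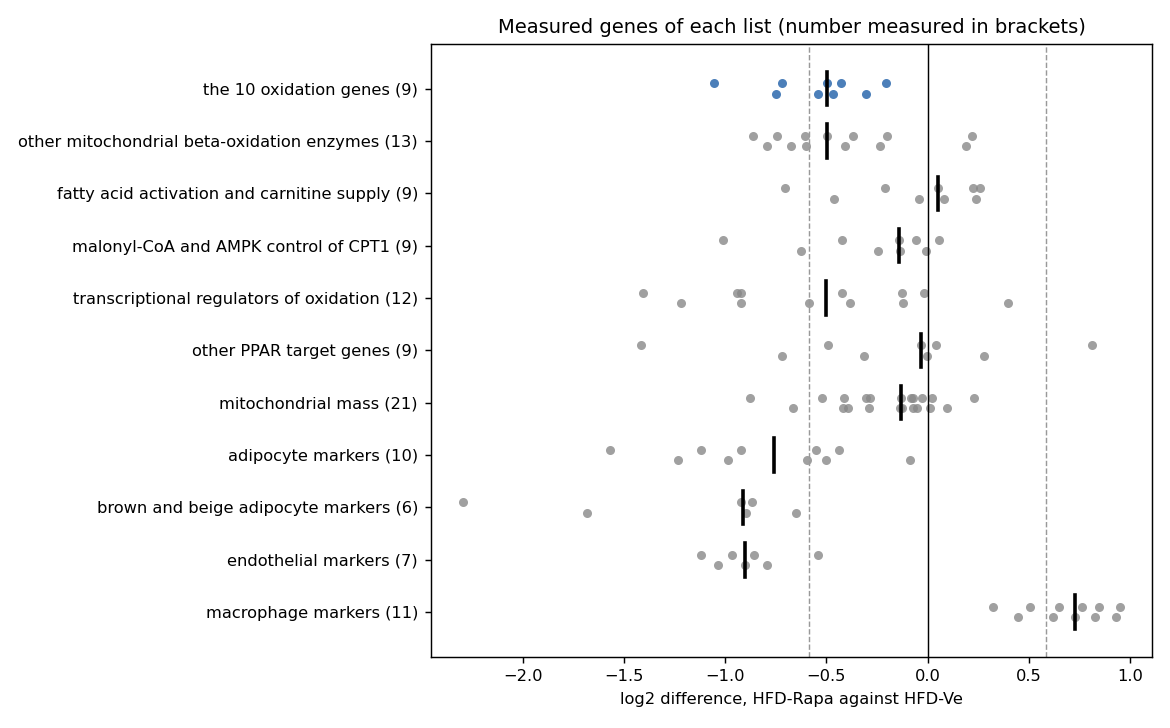
log2 difference of HFD-Rapa against HFD-Ve (horizontal axis) for every measured gene of the lists named on the vertical axis, 1 point per gene, with each list's median as a black bar and the 1.5-fold limits as dashed lines. The 9 oxidation genes and the other enzymes of the cycle have medians of -0.50 and -0.49, mitochondrial mass genes -0.13, adipocyte markers -0.76 and macrophage markers 0.73.

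Genes of general mitochondrial content had a median nearer 0. Of 24 genes that track mitochondrial mass, 21 were measured, 2 were lower in HFD-Rapa mice than in HFD-Ve mice (Cs and Opa1), and the median was -0.13. Cs, citrate synthase, was 11.60 in HFD-Rapa, 12.26 in HFD-Ve and 12.69 in chow mice, a difference of -0.66 between the high-fat groups, within the range of the oxidation genes. Opa1, which fuses inner membranes, differed by -0.88.

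Markers of several cell types also differed between the high-fat groups, in either direction. Of 12 adipocyte markers, 10 were measured and all 10 had a lower signal in HFD-Rapa mice than in HFD-Ve mice, 6 by at least 1.5-fold, at a median of -0.76. Their summed linear signal was 78056 in HFD-Rapa, 102825 in HFD-Ve and 98066 in chow mice, and none of the listed markers with a probe was undetected. Adipoq, which encodes adiponectin, differed by -0.50 between the high-fat groups and Plin1, the lipid droplet coat protein, by -0.99. The macrophage list held 13 symbols, of which Emr1 is a former name of Adgre1, and 11 genes were measured. Of these, 8 were higher in HFD-Rapa mice than in HFD-Ve mice, at a median of 0.73. In HFD-Ve against chow, 10 were higher at a median of 2.36 (1.96 with undetected signals at their bound). Their summed signal was 48024 in HFD-Rapa, 31253 in HFD-Ve and 7919 in chow mice. Endothelial markers were lower in 6 of 7 measured at a median of -0.90, with summed signals of 2686 in HFD-Rapa, 4786 in HFD-Ve and 5271 in chow mice. The part of these cell types, and of the brown and beige fat cells described next, in the differences of the 9 genes was not tested.

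Brown and beige fat cells are rich in the same oxidation enzymes. All 6 measured of their 10 markers were lower in HFD-Rapa mice than in HFD-Ve mice, at a median of -0.91 (-0.88 with Ppargc1a at its bound), and their summed signals were 1235 in HFD-Rapa, 3486 in HFD-Ve and 3917 in chow mice. Ucp1, the uncoupling protein of brown fat, was 5.66 in HFD-Rapa, 6.31 in HFD-Ve and 8.45 in chow mice, and Cidea, a lipid droplet protein, was 6.35, 8.65 and 8.61 on these arrays. Elovl3, Dio2 and Zic1 were not detected. The brown and beige markers were split for HFD-Ve against chow, with 3 of 6 above 0 and a median of -0.05: Prdm16 differed by 0.80, Cox7a1 by 0.18 and Cidea by 0.04, against -0.14 for Cox8b and -2.15 for Ucp1. Cpt1b, the form of muscle and brown fat, was 2.38-fold higher in that comparison. Of 12 skeletal muscle markers, 4 were measured, with summed signals of 826 in HFD-Rapa, 1149 in HFD-Ve and 1072 in chow mice, and these were split as well. Pvalb, the calcium buffer parvalbumin, named after its values were seen, was 7.85 in HFD-Rapa and 8.98 in HFD-Ve mice and not detected in chow mice, where it was at least 11.3-fold below HFD-Ve, an order shared with Cpt1b. Tnni2, a fast-muscle troponin also named after its values were seen, was at least 1.66-fold higher in HFD-Ve than in chow mice, whereas Acta1 and Actn3, a muscle actin and an actinin, differed by -0.74 and -1.27. Ckm, Myh1, Myh4, Mb, Tnnt3, Mylpf and Atp2a1 were not detected on any array. The part of muscle tissue in the signal of Cpt1b was not tested. Hepatocyte markers were measured in 2 of 6, with Alb and Ttr not detected.

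Markers of the fat depot also differed between the pools. The 4 measured subcutaneous markers were split for HFD-Ve against chow, with Hoxc10 and En1 above 0 and Hoxc9 (-0.04) and Hoxc8 (detected in chow mice alone) below, En1 and Hoxc8 being named after their values were seen. Hoxc10, a homeobox gene known from subcutaneous fat, was 5.78 in HFD-Rapa, 8.69 in HFD-Ve and 5.19 in chow mice, 7.50-fold lower in HFD-Rapa mice than in HFD-Ve mice and at least 9.23-fold higher in HFD-Ve than in chow mice, where it was not detected. The summed signal of the 4 measured subcutaneous depot markers was 421 in HFD-Rapa, 1270 in HFD-Ve and 830 in chow mice. Visceral and mesothelial markers, with Upk3b at a difference of 0.62, had summed signals of 3420 in HFD-Rapa, 2223 in HFD-Ve and 4283 in chow mice. Whether the HFD-Ve pool held other fat than the other pools, and its part in the differences of the 9 genes, was not tested.

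**Figure D4:**
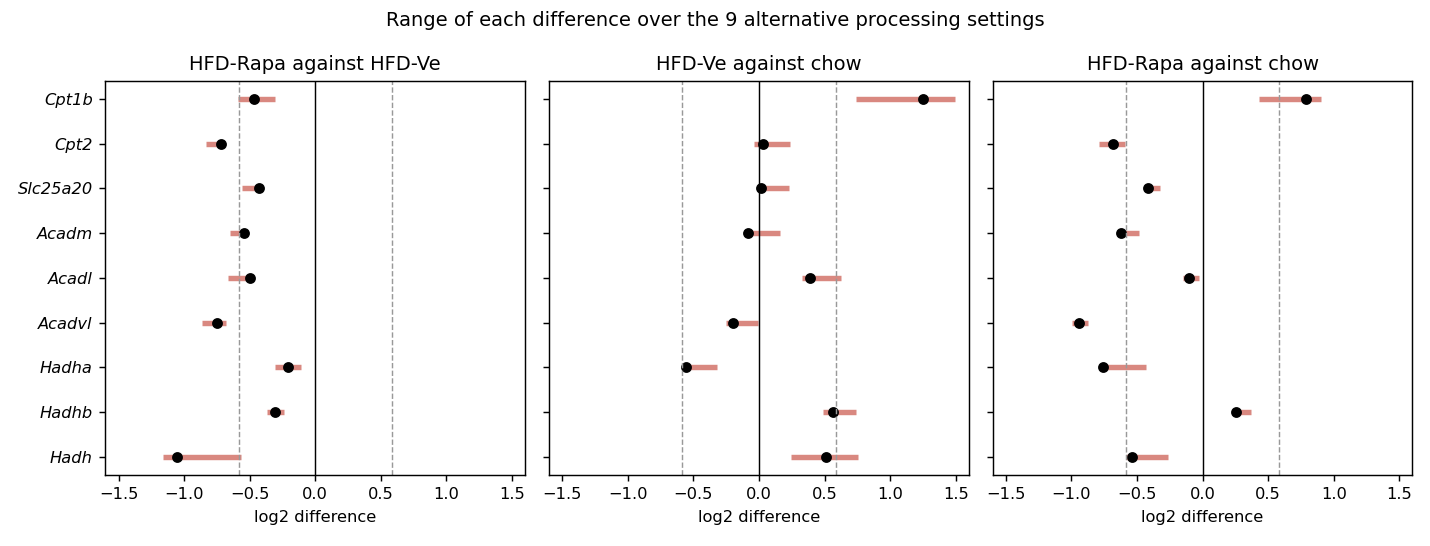
log2 difference of the 9 genes (horizontal axis) for each comparison, with the value reported as a black point, its range over the 9 alternatives that give a value as a bar and the 1.5-fold limits as dashed lines. For HFD-Rapa against HFD-Ve every bar lies below 0, while for HFD-Ve against chow 4 of the 81 values change sign. Among the 81 are the main values that the detection filter alternatives return unchanged.

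The direction of the 9 genes for HFD-Rapa against HFD-Ve was the same under every alternative tried: all 81 values, of 9 genes under 9 alternatives, were below 0. Alternatives that changed only the detection filter gave each of the 9 genes its main value and could not alter it. All alternatives used the same arrays, so their agreement is no replicate. The count of lower genes was 3 in the main setting, 6 when the arrays were scaled on their medians (Cpt1b, Acadm and Acadl in addition) and 1 at a threshold of 2-fold (Hadh), which 2.13% of all genes passed in this direction. The call of Acadvl was made under all 9 alternatives, that of Cpt2 likewise, and that of Hadh under 8 of 9, its difference ranging between -1.16 and -0.57. The detection filter alternatives, which could not end a call, are counted in these tallies.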

How the data were processed

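RNA of VWAT, pooled per group, was hybridised to 1 bead array for each of the 3 groups (HFD-Rapa, HFD-Ve, chow), taken from the sample labels. The authors deposited the signal intensity of 45281 probes without normalization (GenomeStudio is named in the submitters' processing notes), and a detection p-value beside each signal. The authors also deposited a second table of intensity values on a linear scale, already processed by a method not given in the sources used here, and these served as an alternative. Raw signals were corrected with the function nec of limma 3.58.1 (R 4.3.3), with the background taken from the detection p and an offset of 16, then quantile normalized and set on the log2 scale. Kept were the 18954 probes whose detection p was below 0.01 on 1 array or more, and the brightest probe with 1 annotated gene stood for it. Of 45281 probes, 34885 had 1 gene, 18 had several and were not named, and 10378 are unnamed here.

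With 1 array per group no test was possible, and no p-value was computed: the number of arrays limits the precision. Lists are described by counts at 1.5-fold and medians beside all 10603 measured genes, computed in Python 3.11.15 with pandas 2.3.3. The scripts were tested on simulated data with planted changes of at least 2-fold, in probes brighter than those of Cpt1b, Hadha and Hadh. Smaller planted changes, and planted changes in dim probes, were not tried. All 10 members are named, and from each of 15 other lists up to 4 genes detected on all 3 arrays with the largest difference of HFD-Rapa against HFD-Ve, plus defining genes of a pathway or cell type. The members and lists were chosen with earlier results of these data known. As alternatives, the correction was omitted or its offset set to 50, arrays were shifted to the 75th percentile or scaled on the median, the authors' processed values were used, the detection limit was moved to 0.05, required on all 3 arrays or dropped, probes of a gene were averaged, and the threshold was set to 2-fold. Upstream windows came from RefSeq (GRCm38.p6), and 9 of 10 members matched.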

Additional observations from a re-analysis of the deposited data

How the results depend on the processing

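All 81 differences of the 9 genes for HFD-Rapa against HFD-Ve and all 81 for HFD-Rapa against chow kept their sign under the 9 alternatives that give a value, whereas 4 of 81 changed sign for HFD-Ve against chow, all of them genes with differences near 0 (Cpt2, Slc25a20 and Acadm). These totals include the alternatives that changed only the detection filter, which left the differences of the 9 genes as they were. Scaling on the median gave 6 genes lower for HFD-Rapa against HFD-Ve (main count 3, 10.7% of all genes under this scaling), adding Cpt1b, Acadm and Acadl, and 3 higher for HFD-Ve against chow (main count 1), adding Hadhb and Hadh. This scaling moved the median of all genes by -0.11 for HFD-Rapa against HFD-Ve and by 0.21 for HFD-Ve against chow, where 6.57% of all genes were then lower and 21.7% higher. The mean of a gene's probes gave 2 higher for HFD-Ve against chow, Cpt1b and Acadl (14.7% of all genes), 4 lower for HFD-Rapa against HFD-Ve (7.29%) and 5 lower for HFD-Rapa against chow (19.0%). The means of Cpt1b and Acadl each include a probe not detected in chow mice. At 2-fold, 1 gene was lower for HFD-Rapa against HFD-Ve (Hadh, 2.13% of all genes) and 0 for HFD-Rapa against chow (main count 4, 8.25% of all genes at 2-fold). The authors' processed values gave 2 lower for HFD-Rapa against chow (12.6% of all genes, against 19.5% in the main setting). Cpt1b, the 1 gene higher for HFD-Rapa against chow, was no longer past 1.5-fold, giving a count of 0, with no background correction, an offset of 50, the authors' processed values, the mean of a gene's probes and the 2-fold threshold (11.7% to 19.9% of all genes higher). At 1.5-fold, the calls that were lost were those of dim probes (Cpt1b, Hadha, Hadh) and of Acadm, which lies near the threshold, and at 2-fold those of Cpt2 and Acadvl were lost too, in both comparisons with HFD-Rapa. With no detection filter, Cpt1a differed by -0.17 for HFD-Rapa against HFD-Ve, at a signal not above background. No paired analysis was possible because each group has 1 array. Signal over background limits Cpt1a, Cpt1b, Hadha and Hadh, and 1 pool per group leaves the spread between mice unmeasured.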
